A study of Mus musculus with 2 samples.

Results

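Clusters 0, 1 and 2 are the largest groups of thymocytes in a single-cell RNA-seq data set of mouse thymus, and they hold 5743 of 13683 cells (42.0%). The members were chosen by the cluster number that accompanies each cell in the deposited table (resolution 1.5, which gave 19 clusters), and the genotype was read from the cell name. Cluster 0 held 2326 cells, cluster 1 held 1989 and cluster 2 held 1428. The 3 clusters carry the name resting DP thymocytes because of their Rag1.

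The study pooled thymocytes of 5 mice of 6 weeks into 1 library per genotype. The WT library came from Cdc42f/f mice, in which loxP sites surround exon 2 of an otherwise intact Cdc42 gene, and the KO library from Cdc42f/f CD4Cre mice, in which Cre from the CD4 promoter deletes that exon in cells that express CD4 or did so earlier. Both groups therefore carry the floxed allele and differ in the transgene. Red cells were lysed before 10x Chromium 3′ libraries were made, and the cell names spell the gene Cdc45 in place of Cdc42. With 1 library per genotype there was no replicate, so no test between genotypes was possible. Intervals are exact 95% intervals that cover counting error only, and differences between mice cannot be told apart from differences between genotypes.

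Double-positive (DP) thymocytes carry both coreceptors, CD4 and CD8, and make up most of the thymus. They leave the cell cycle after a pre-TCR signal and then rearrange the TCR alpha locus, for which they need the recombinase made by Rag1 and Rag2. Of the cells whose receptor recognises self-peptide on MHC, some go on to the single-positive (SP) stages. Cells whose receptor does not recognise it die in the cortex.

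The clusters were named for Rag1, and Cd8b1 was among the markers given with the name, so their levels describe the members and are no check of the label. Rag1 (the catalytic recombinase subunit) was seen in 97.7% of the cells of cluster 0, 98.3% of cluster 1 and 97.3% of cluster 2. In cluster 16, where macrophage markers such as Apoe are abundant and Rag1 should be absent, 13.9% of cells held a Rag1 UMI at a median depth of 759 UMIs, against 2719 to 3034 UMIs in the 3 clusters. Cd4 had a UMI in 77.7%, 80.8% and 76.5% of the cells, and Cd8b1 in 99.6%, 99.9% and 99.9%. Mitosis genes summed to between 375 and 431 CPM (UMIs per 1000000 UMIs of the same cells) in the 3 clusters, against 25806 in KO and 26204 in WT cells of cluster 10, a dividing population.

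The WT library contributed 2470 cells of its 6115 (40.4%, 39.2 to 41.6%) and the KO library 3273 of 7568 (43.2%, 42.1 to 44.4%). Cluster 0 took 16.7% of the WT and 17.3% of the KO cells, and cluster 2 took 10.8% and 10.1%, with overlapping intervals in both. Cluster 1 took 12.9% (12.1 to 13.8%) of the WT and 15.9% (15.04 to 16.7%) of the KO cells, and these intervals did not overlap. Since cluster 1 is set apart by Ly6d, a gene that also differed between the libraries, its size was not read as a difference between genotypes.

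The 3 clusters held 6768456 UMIs in the WT and 10161552 in the KO library, with a median of 2629 and 2956 UMIs per cell. After each cell was thinned to 1000 UMIs, the median number of genes was 664 in WT and 671 in KO cells of cluster 0, 658 and 665 in cluster 1, and 662 and 669 in cluster 2. The unthinned medians ran from 1358 to 1588 genes, and 0 to 14 cells of each group with fewer UMIs were left out of the thinned ones. The median share of mitochondrial UMIs ran from 5.98% to 6.32% over the 6 groups of cells. Only 17 barcodes occurred in both libraries, in 11 cells of the 3 clusters.

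The genes that separate the clusters from one another were few: the T-cell receptor genes Trbc1 and Trbc2, Ly6d and a pair of alpha-tubulin genes. The beta chain of the TCR ends in a constant region that is encoded by either of a pair of genes, Trbc1 (chr6:41538218-41539881, plus strand, GRCm38) and Trbc2 (chr6:41546730-41548352), each with its own upstream diversity and joining segments. The genes are near copies, which matters for how reads can be counted. In the GENCODE M21 transcripts, exon 1 has 375 bases and differs at 1 position (C260A, Trbc1 base first, counted from the first base of exon 1), while the coding part after exon 1 has 143 bases with 22 differences, an identity of 84.6%. The 3′ untranslated parts, where 3′ libraries place most reads, were identical at 54.5% of 222 aligned positions. The coding ends are given because they are what tells the genes apart, with differing bases in capitals, read 5′ to 3′ from position 376 to 518.
Trbc1: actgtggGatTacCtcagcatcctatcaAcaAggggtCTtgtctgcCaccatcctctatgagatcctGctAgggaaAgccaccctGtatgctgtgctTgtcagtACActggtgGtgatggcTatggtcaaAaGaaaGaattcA
Trbc2: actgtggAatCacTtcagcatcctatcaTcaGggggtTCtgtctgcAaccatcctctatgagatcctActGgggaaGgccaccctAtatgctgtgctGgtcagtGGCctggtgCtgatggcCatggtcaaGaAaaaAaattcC
How the authors' counting treated reads that match both genes is not given in the sources used here, so counts of one may hold some reads of the other.

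Cluster 2 was the group without Trbc1. Trbc1 stood at 6107 CPM in WT and 5982 in KO cells of cluster 0, at 6543 and 6363 in cluster 1, and at 49.2 and 58.8 in cluster 2. In cluster 2, 189 of 1428 cells (13.2%, 11.5 to 15.1%) held a Trbc1 UMI and the highest cell held 5. That share was below the 20.3% (12.04 to 30.8%) seen in cluster 16. The cells of cluster 2 were deeper, with a median of 2759.5 against 759 UMIs. The source of the Trbc1 UMIs in cluster 2 was not tested, and some may be reads of Trbc2. All 2326 cells of cluster 0 and all 1989 cells of cluster 1 held a Trbc1 UMI.

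Trbc2 was present in all 3 clusters. It was found in 99.6% of the cells of cluster 0, 99.8% of cluster 1 and 100% of cluster 2. Its mean level was 63.6 UMIs per 10000 in WT and 60.5 in KO cells of cluster 0, 65.4 and 60.8 in cluster 1, and 91.8 and 85.9 in cluster 2. The cells without Trbc1 thus carried more Trbc2, by a log2 ratio of 0.51 in WT and 0.50 in KO cells, but fewer Trbc UMIs in all: 24.8 per cell, against 33.4 in cluster 0 and 41.7 in cluster 1.

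Cells of clusters 0 and 1 mostly held both constant genes at once. Both were detected in 99.6% of the cells of cluster 0 and 99.8% of cluster 1, and no cell of either cluster held Trbc2 without Trbc1. Among cells with at least 6 Trbc UMIs, the median share of Trbc1 was 47.8% in cluster 0 and 50.9% in cluster 1, and the middle 90% of cells ran from 11.1 to 85.9% and from 12.03 to 85.3%. The middle 50% of cells ran from 29.0 to 66.7% in cluster 0 and from 32.0 to 68.0% in cluster 1.

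Ly6d separated cluster 1. Ly6d (a GPI-anchored surface protein of the Ly6 family, also known from early lymphoid progenitors) had a UMI in 97.8% of the cells of cluster 1, 11.8% of cluster 0 and 14.3% of cluster 2. In cluster 16 the share was 7.59% (2.84 to 15.8%). The mean level was 19.2 UMIs per 10000 in WT and 20.3 in KO cells of cluster 1, 0.389 and 0.683 in cluster 0, and 0.472 and 1.00 in cluster 2. In the clusters with little Ly6d, the KO library had more cells with a UMI: 14.5% (12.7 to 16.6%) against 8.33% (6.71 to 10.2%) in cluster 0, and 19.04% (16.3 to 21.996%) against 8.77% (6.73 to 11.2%) in cluster 2.

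**Figure D1:**
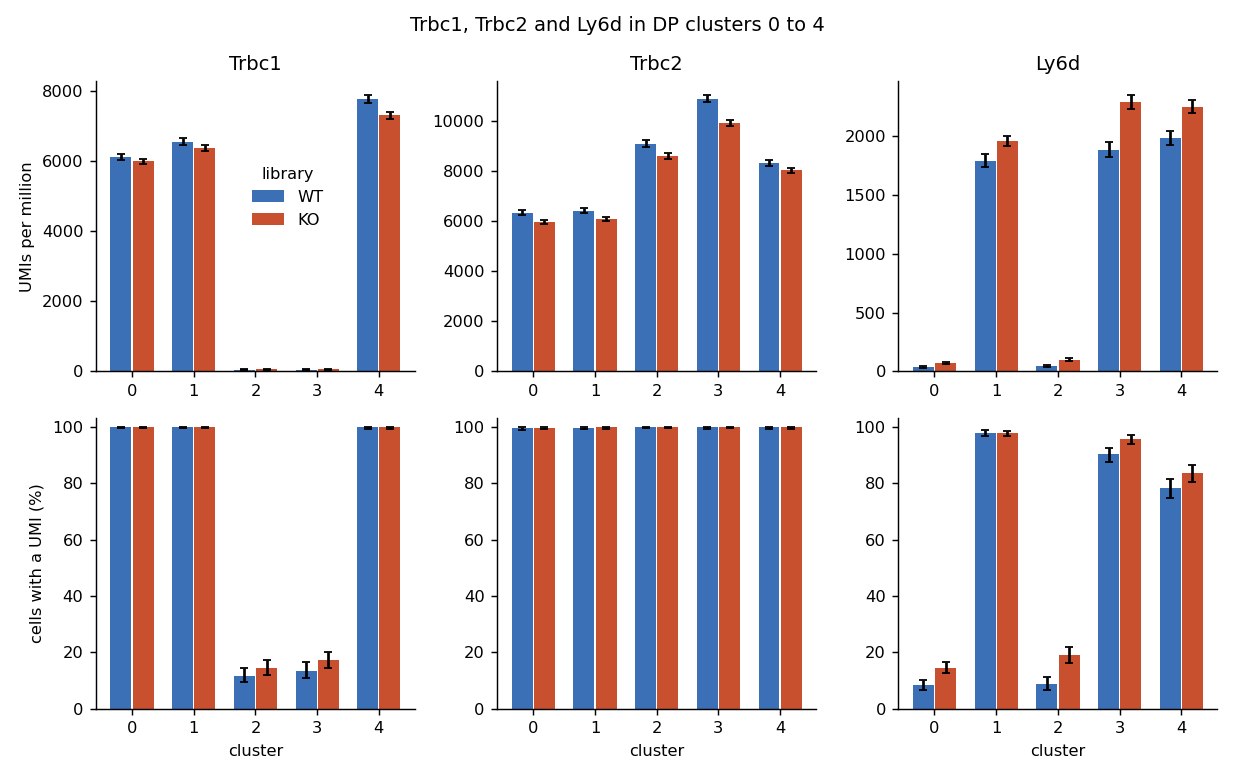
Level (CPM, upper row) and share of cells with a UMI (percent, lower row) of Trbc1, Trbc2 and Ly6d in clusters 0 to 4, with the WT library in blue and the KO library in orange; bars carry exact 95% counting intervals. Trbc1 is near 0 in clusters 2 and 3 and Ly6d is low in clusters 0 and 2, in both libraries.

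Across the detected genes almost nothing else passed a log2 ratio of 0.5 in both libraries when one cluster was set against the other 2. Cluster 0 had 1 of 4461 genes higher (Trbc1, 0.0224%) and 1 lower (Ly6d, 0.0224%). Cluster 1 had 2 of 4639 higher (Ly6d and Trbc1, 0.0431%) and 2 lower (Tuba1a and Tuba1b, 0.0431%). Cluster 2 had 1 of 4412 higher (Trbc2, 0.0227%) and 2 lower (Trbc1 and Ly6d, 0.0453%). Trbc2 passed the fold there by little, and with cells thinned to 1000 UMIs 0 genes were higher in cluster 2. At a log2 ratio of 1, Ly6d alone was higher in cluster 1 (1 gene, 0.0216%). The clusters were made from these same genes, so these values describe the clusters and test nothing.

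Tuba1a and Tuba1b, which encode alpha-tubulins, had the next largest ratios. Tuba1a stood at 1.21 UMIs per 10000 in WT and 1.503 in KO cells of cluster 1, against 1.77 and 2.34 in cluster 0 and 1.71 and 2.32 in cluster 2. Tuba1b stood at 0.415 and 0.494 in cluster 1, 0.581 and 0.800 in cluster 0, and 0.604 and 0.881 in cluster 2. Both were thus lower in the Ly6d-high cluster in either library. With cells thinned to 1000 UMIs, or with UMIs summed over cells in place of the mean over cells, neither alpha-tubulin passed the fold.

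Below that fold the named genes of each cluster differed by small amounts. In cluster 0, Polr2l (a subunit shared by RNA polymerases) and Herpud2 led after Trbc1, with log2 ratios of at least 0.40 and 0.36 in both libraries, followed by Slc43a1, Ing2, Pink1, Lypla2, Klhl20 and Tspan32. Cd2, an adhesion receptor of T cells, and Hcfc1r1 were lowest after Ly6d, with log2 ratios of at most -0.38 and -0.47 in both libraries, followed by Cfap36 and Fkbp5. In cluster 1, Bst2 (the antiviral protein tetherin), Hcfc1r1, Anxa2 (a membrane-binding annexin), Map2k4, Lynx1, Ccnd3 (cyclin D3), Zc3h6 and Mrpl35 stood between 0.33 and 0.40 in the library with the smaller ratio, and Tubb2a, Ing2 and Tdrp were lowest after the alpha-tubulins. In cluster 2, Slc37a2, Ncoa3, Baz1a, BC004004, Thoc6, Mrps7, B930036N10Rik, Atad2 and Paics stood between 0.29 and 0.44, and Yipf6, Itgb1bp1 and C2cd3 were lowest after the receptor genes and Ly6d. Apart from Tspan32, Anxa2, Ccnd3 and Tubb2a, these genes were seen in 7.35 to 17.0% of the cells of their cluster, so their levels rest on few UMIs per cell.

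The Ly6d split recurred among the other DP clusters with high Rag1. Cluster 3 lacked Trbc1 as cluster 2 did (15.5% of cells with a UMI) and had Ly6d in 93.4% of its cells, so it stood to cluster 2 as cluster 1 stood to cluster 0. Cluster 4 held Trbc1 in all cells and Ly6d in 81.1%. Setting 1 against 0 and 3 against 2 in each library gave 4 ratios per gene, and 19 of 4771 genes were higher (0.398%) and 21 lower (0.44%) by at least 0.25 on the log2 scale in all 4. At 0.5 only Ly6d (0.021%) and Tuba1a (0.021%) passed in all 4. Clusters 1 and 3 share their library with clusters 0 and 2.

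Genes higher with Ly6d in all 4 ratios included Lgals1 (galectin 1), Anxa2, Ccnd3, Bst2, Ly6e and Trdc (the constant gene of the TCR delta chain). Lgals1 stood at 2.10 and 2.30 UMIs per 10000 in WT and KO cells of cluster 0, 2.76 and 3.02 in cluster 1, 2.11 and 2.89 in cluster 2, and 4.96 and 5.68 in cluster 3. Ccnd3, which partners the kinases of the G1 phase, stood at 9.95 and 10.3 in cluster 0, 12.9 and 13.1 in cluster 1, 10.5 and 10.2 in cluster 2, and 14.5 and 13.9 in cluster 3. In both genes the Ly6d-high cluster of each pair was higher in either library. Cluster 4 was highest of the 5 for both.

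Genes lower with Ly6d in all 4 ratios included Tuba1a, Tuba1b, Tubb2a and Tubb4b (tubulins), S100a11, Car2 (carbonic anhydrase 2), Tdrp and Bcl2l11 (the pro-apoptotic BH3-only protein Bim). Bcl2l11 stood at 0.761 and 0.650 UMIs per 10000 in WT and KO cells of cluster 0, and at 0.599 and 0.524 in cluster 1. Trac encodes the constant region of the TCR alpha chain. It stood at 631 CPM in cluster 0, 582 in cluster 1 and 625 in cluster 2, and at 535 in cluster 3 and 479 in cluster 4. The share of ribosomal protein UMIs ran the other way, with medians of 11.8% in cluster 0, 12.5% in cluster 1, 11.9% in cluster 2, 14.5% in cluster 3 and 17.0% in cluster 4. The part of this share in the differences was not tested.

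**Figure D2:**
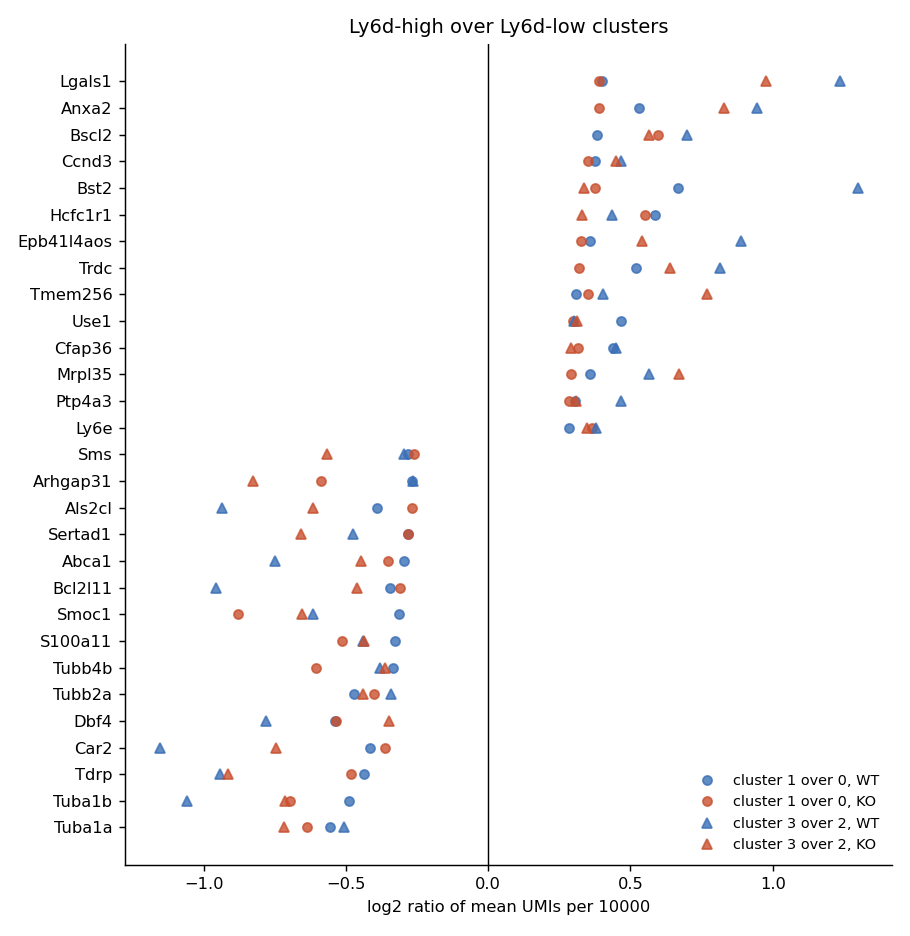
Log2 ratios of the mean level (UMIs per 10000) of the Ly6d-high over the Ly6d-low cluster, for the 14 genes after Ly6d and the 15 genes at the other end; circles are cluster 1 over 0, triangles cluster 3 over 2, blue WT and orange KO. All 4 points of each gene lie on the same side of 0, and the alpha-tubulin Tuba1a ends the list between -0.51 and -0.72.

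Rag1 and Rag2 were among many genes that the 3 clusters shared. Of 4041 genes seen in at least 10% of the cells of each cluster, 299 (7.4%) were higher than in the cells outside the 3 clusters by a log2 ratio of at least 0.5 in every cluster and library. Rag1, sixth of them, stood at 32.6 and 30.4 UMIs per 10000 in WT and KO cells of cluster 0, 31.7 and 29.6 in cluster 1, and 31.7 and 28.8 in cluster 2, against 10.8 and 10.9 in the cells outside. It was lower in cluster 3, at 26.5 and 25.5, and in cluster 4, at 22.2 and 21.2. Clusters 0 to 2 were thus above cluster 3, and cluster 3 above cluster 4, in each library.

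Rag2, the partner of Rag1, had a smallest ratio of 1.06 over the 6 groups. It stood at 2.26 to 2.49 UMIs per 10000 in the 3 clusters against 0.971 and 1.09 outside. Arpp21 (a thymocyte and brain phosphoprotein) reached 0.90, Cd8b1 and Cd4 0.85, Themis (an adaptor of TCR signalling at the DP stage) 0.80, Tcf12 (the E protein HEB) 0.70, Dntt (terminal transferase) 0.65 and Cd8a 0.64. Across the DP clusters Cd8b1 ran from 34.4 to 36.9 UMIs per 10000 over clusters 0 to 4 in both libraries. Rag1 and Rag2, unlike Cd8b1, were highest in clusters 0 to 2.

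Rag1 and Rag2 lie next to each other on chromosome 2 and are read in opposite directions. The 250 bases before their starts (RefSeq, GRCm38.p6) are given because both genes mark all 3 clusters. Capitals mark E-boxes, the motif CANNTG that E proteins such as Tcf12 bind, which was searched for on both strands.
Rag1, chr2:101649533-101649782, minus strand: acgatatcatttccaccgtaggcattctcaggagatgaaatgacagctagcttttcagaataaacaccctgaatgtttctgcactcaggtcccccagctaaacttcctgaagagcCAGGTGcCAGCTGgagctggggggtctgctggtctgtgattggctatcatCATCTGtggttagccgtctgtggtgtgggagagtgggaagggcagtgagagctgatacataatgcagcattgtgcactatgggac
Rag2, chr2:101624462-101624711, plus strand: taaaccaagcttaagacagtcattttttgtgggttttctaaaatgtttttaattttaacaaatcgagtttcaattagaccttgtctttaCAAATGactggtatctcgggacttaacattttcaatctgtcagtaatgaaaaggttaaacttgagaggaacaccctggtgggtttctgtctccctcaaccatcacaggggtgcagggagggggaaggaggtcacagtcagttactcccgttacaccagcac
The Rag1 stretch held 3 E-boxes and the Rag2 stretch 1. Of 27025 promoters of the same length, 66.0% held at least 1 and 12.1% at least 3. The motif CTTTGA, the core bound by Tcf7 and Lef1, was in neither, and in 14.1% of all promoters. A match of letters is a description and does not show binding.

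The other leading shared genes were less well known. Slc6a19 (a transporter of neutral amino acids) came first with a smallest ratio of 1.65, followed by BC065403, BB031773, Xrra1 and Gm32004 at 1.56 to 1.64. P2rx1 (an ATP-gated ion channel, 1.40), Bmf (a pro-apoptotic BH3-only protein, 1.39), B230118H07Rik (1.37), Car2 (1.33) and Arl5c (a small GTPase, 1.20) were also among the first 20. Others were A430035B10Rik, Tctex1d1, E430002N23Rik, Gm15340, Zfyve28, Plxdc1, Gm44175 and Nron (a long noncoding RNA), at 1.16 to 1.33.

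Bmf and Car2 were far lower in cluster 4 than in cluster 0. Car2 was at 0.590 UMIs per 10000 in both WT and KO cells of cluster 0, at 0.286 and 0.288 in cluster 3, and at 0.174 and 0.147 in cluster 4. Bmf was at 0.373 and 0.578 UMIs per 10000 in WT and KO cells of cluster 0 but at 0.157 and 0.406 in cluster 3 and 0.0850 and 0.116 in cluster 4. Gm15340, in contrast, was at 3.90 and 3.51 in cluster 0 and at 3.76 and 3.83 in cluster 4. Shared genes thus differed in how far they reached into the other DP clusters.

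**Figure D3:**
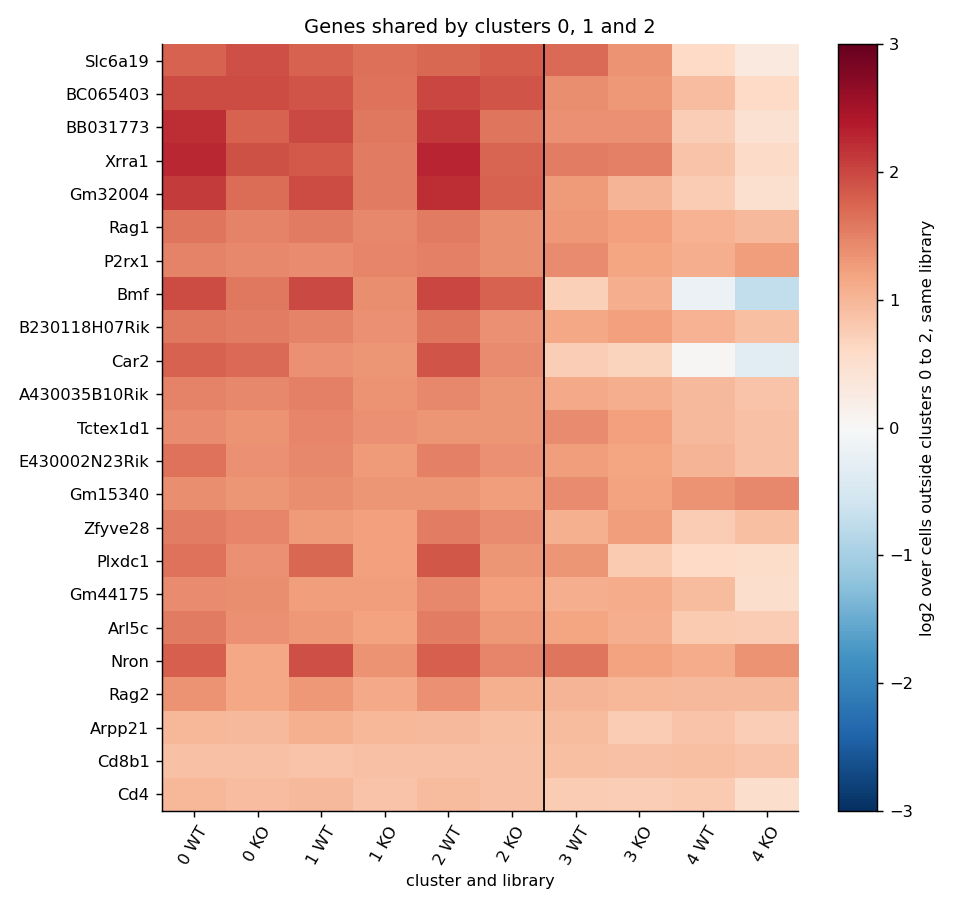
Log2 ratio of the mean level in each of clusters 0 to 4 over the cells outside clusters 0 to 2 of the same library (colour), for 19 of the first 20 shared genes and for Rag2, Arpp21, Cd8b1 and Cd4. The line parts the 3 clusters from clusters 3 and 4, and in cluster 4 Bmf stands below the cells outside, at 0.0850 against 0.0964 UMIs per 10000 in WT and 0.116 against 0.192 in KO.

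KO was set beside WT within each cluster by summing UMIs, which asks how DP cells of mice with the Cre transgene differ from those without it. Cdc42, the gene targeted in the KO mice, stood at 361 CPM in WT and 319 in KO cells of cluster 0 (log2 ratio -0.18, -0.30 to -0.05). It was 351 and 303 in cluster 1 (-0.21, -0.34 to -0.09) and 350 and 322 in cluster 2 (-0.12, -0.28 to 0.04). The KO library was thus slightly lower, and its interval reached above 0 in cluster 2. The deleted exon 2 holds the start codon in GENCODE M21 and lies upstream of the 3′ end that these libraries read, so this level does not check the deletion, and the genotypes rest on the labels.

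Few genes passed a log2 ratio of 0.5. With at least 100 UMIs over both libraries, 182 of 6865 genes were higher in KO cells of cluster 0 (2.65%) and 91 lower (1.33%). Cluster 1 had 199 of 6920 higher (2.88%) and 82 lower (1.18%), and cluster 2 had 163 of 5521 higher (2.95%) and 72 lower (1.3%). With the 3 summed, 255 of 9064 were higher (2.81%) and 87 lower (0.96%). With DESeq2 size factors in place of totals the split was 204 higher and 112 lower, and with TMM factors 207 and 111. A log2 ratio of 1 was passed by 28 genes higher (0.309%) and 7 lower (0.0772%) with the 3 summed, by 13 (0.189%) and 5 (0.0728%) in cluster 0, 14 (0.202%) and 5 (0.0723%) in cluster 1, and 9 (0.163%) and 4 (0.0725%) in cluster 2. In each of the 3 clusters separately, 24 of 5521 genes were higher (0.435%) and 6 lower (0.109%).

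Ctsl and Wnt8b led the genes lower in KO cells. Ctsl encodes cathepsin L, a lysosomal cysteine protease that in the thymus is best known from cortical epithelium. It stood at 2265 CPM in WT and 318 in KO cells of cluster 0, 2425 and 339 in cluster 1, and 2331 and 336 in cluster 2. The log2 ratio was -2.82 (-2.88 to -2.77) over the 3. It was as large in clusters 5 and above (-2.89), so the gap was not limited to these cells. Markers of thymic epithelial cells summed to 41.2 CPM in WT and 51.7 in KO cells. Of these 10 markers 6 were in the matrix and 2 had at least 20 UMIs. Their sum is too sparse to measure epithelial RNA, whose part in the gap was not tested.

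Wnt8b, a Wnt ligand, was all but absent from the KO library. The WT cells held 143 UMIs in cluster 0, 104 in cluster 1 and 101 in cluster 2, and the KO cells held 1, 1 and 4. In WT, 11.4%, 11.2% and 11.6% of the cells of clusters 0, 1 and 2 had a UMI, and in KO 0.0766%, 0.0833% and 0.522%. The log2 ratio was -7.09 (-12.99 to -5.17) in cluster 0, -6.90 (-12.80 to -4.97) in cluster 1, -4.89 (-6.95 to -3.65) in cluster 2 and -6.33 (-7.90 to -5.31) over the 3.

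Arl3, a small GTPase of ciliary transport, had a log2 ratio of -1.15 (-1.38 to -0.92). Wnt8b (chr19:44493472-44514273) and Arl3 (chr19:46531096-46573198) lie on chromosome 19, with a gap of 2.02 Mb between them. Other genes lower by the naming rule were Gm15498 (a lincRNA, -0.72), Insl5 (an insulin-like peptide, -0.77), H2bc6 (-0.63), H1f0 and H2bu2 (-0.44 each), which are histones, Lars2 (mitochondrial leucyl-tRNA synthetase, -0.50), Jund (an AP-1 subunit, -0.49), Mprip (-0.45), Rgs10 (-0.38) and Dgkg (-0.39). Lars2 had the highest count after Ctsl and Jund, at 542 CPM in WT and 384 in KO cells.

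Gm45315 led the genes higher in KO cells. It is a processed pseudogene (chr7:12797529-12797861), so its UMIs may come from a near-identical copy and its value is uncertain. It held 38 UMIs in WT and 1843 in KO cells, or 5.61 and 181 CPM (log2 ratio 4.995, 4.55 to 5.52). The share of cells with a UMI was 1.86% in WT and 39.7% in KO cells of cluster 0, 1.90% and 41.5% in cluster 1, and 0.605% and 40.3% in cluster 2.

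Epsti1 and Dnajc15 are neighbours on chromosome 14 and were both higher. Epsti1 (chr14:77904239-78002657), which interferon induces, stood at 49.8, 49.0 and 43.4 CPM in WT cells of clusters 0, 1 and 2 and at 336, 351 and 329 in KO cells. Dnajc15 (chr14:77820681-77875125), a mitochondrial co-chaperone, stood at 145, 161 and 134 in WT and at 655, 609 and 624 in KO cells. The genes lie 0.0291 Mb apart, and their log2 ratios were 2.83 (2.67 to 3.00) and 2.09 (2.00 to 2.19). In clusters 3 and 4 the ratios were 1.94 and 1.22, and in clusters 5 and above 0.96 and 0.79.

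Other genes higher in all 3 clusters were Ifi27l2a (an interferon-induced protein), mt-Nd3 (a complex I subunit), Inpp4b (a phosphoinositide 4-phosphatase), Slc6a19, Klf6 (a zinc-finger transcription factor) and Mgat5 (which branches N-glycans). Ifi27l2a stood at 10.3, 15.8 and 12.7 CPM in WT and 44.5, 61.1 and 34.5 in KO cells of clusters 0, 1 and 2. The log2 ratios over the 3 clusters were 1.92 (1.60 to 2.28) for Ifi27l2a, 1.19 (1.06 to 1.32) for mt-Nd3, 1.16 (0.90 to 1.43) for Inpp4b, 1.08 (0.89 to 1.28) for Slc6a19, 1.03 (0.82 to 1.26) for Klf6 and 0.89 (0.73 to 1.05) for Mgat5. Cd53 (a tetraspanin), Abcc5 (an efflux transporter), St6gal1 (a sialyltransferase), Acss2 (acetyl-CoA synthetase), Trim30a and Shisa5 stood between 0.72 and 0.88. Slc6a19 was thus both the first of the shared genes and higher in the KO library.

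Some of these differences were of the opposite sign elsewhere in the thymus. In clusters 5 and above, Ifi27l2a had a log2 ratio of -1.04, Inpp4b of -0.82 and Shisa5 of -0.32, while in clusters 3 and 4 they had 1.78, 1.49 and 0.59. Gm45315, mt-Nd3, Abcc5 and Klf6 had ratios of 5.14, 1.20, 0.77 and 0.86 in clusters 5 and above, on the same side as in the resting DP cells. The cells of clusters 5 and above are a mixture whose make-up differs between the libraries, and its part in these ratios was not tested.

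**Figure D4:**
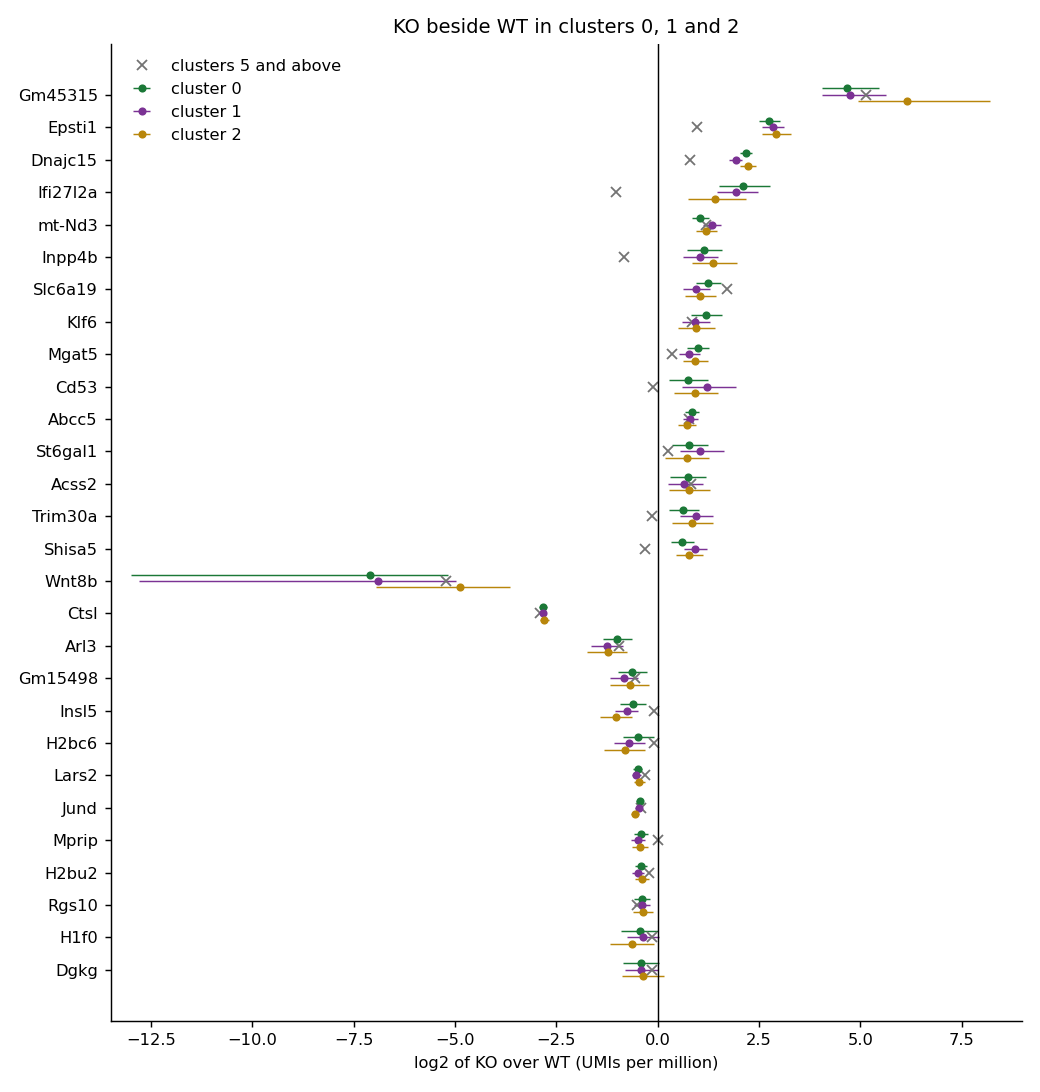
Log2 ratio of KO over WT (CPM) of 28 of the 30 genes of the naming rule in clusters 0, 1 and 2, with exact 95% counting intervals as lines, and in clusters 5 and above as grey crosses. Wnt8b and Ctsl stand lowest and Gm45315 and Epsti1 highest in each cluster, while the crosses of Ifi27l2a and Inpp4b lie left of 0.

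Genes of the interferon response were higher in KO cells as a list. Of the 20 genes 19 were measured, here meaning at least 20 UMIs over both libraries, and 18 were above the median of all genes, with a median log2 ratio 0.52 above it. Over the members with at least 100 UMIs the median was 0.31 above. These and the list values that follow are for the 3 clusters summed unless a cluster is named. For each list count, the share of all genes past the fold with the 3 summed was 2.81% higher and 0.96% lower. Past the fold of 0.5 were 7 of 15 genes with at least 100 UMIs, against 2.81% of all genes: Ifi27l2a, Irf7 (a transcription factor that amplifies the response, 1.87), Rtp4 (1.17), Isg15 (a ubiquitin-like modifier, 1.02), Xaf1 (1.02), Isg20 (0.60) and Irf9 (0.56). Isg15 stood at 16.7 CPM in WT and 34.05 in KO cells, and Irf7 at 2.36 and 8.86. In clusters 5 and above Irf7 was lower in KO cells (-0.33, -0.53 to -0.14). In clusters 3 and 4 it had 22 UMIs in WT and 34 in KO cells (0.27, -0.53 to 1.13). Psmb8, the most abundant member, stood at 490 and 458.

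The list's median was highest in cluster 0 and lowest in cluster 2. It was 0.52 above that of all genes in cluster 0, 0.42 in cluster 1 and 0.26 in cluster 2. These medians are over 17, 18 and 15 measured genes, so they do not cover the same members. Past the fold upwards were 6 of 12, 6 of 14 and 1 of 6 genes, against 2.65%, 2.88% and 2.95% of all genes in clusters 0, 1 and 2. Isg15 alone had log2 ratios of 1.51, 0.92 and 0.58 in clusters 0, 1 and 2. These gaps between clusters were not tested.

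MHC class I genes, several of which interferon also induces, were higher by less. The median of 13 measured genes was 0.12 above that of all genes, and 0 of 12 passed the fold with the 3 clusters summed. By cluster the median was 0.20, 0.09 and 0.04 above in clusters 0, 1 and 2. In cluster 0, 3 of 12 were past the fold (H2-K1, H2-D1 and H2-T22), in cluster 1 it was 1 of 12 (H2-K1), and in cluster 2 it was 0 of 11. B2m, the shared light chain, stood at 209 CPM in WT and 262 in KO cells (log2 ratio 0.32, 0.23 to 0.42), and H2-D1 at 145 and 203 (0.49, 0.38 to 0.60). H2-K1 had 0.41 (0.10 to 0.74). B2m had a log2 ratio of 0.29 (0.18 to 0.40) in clusters 3 and 4 and of -0.30 in clusters 5 and above.

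Genes of late SP maturation were mostly higher in the KO library, and several of them were scarce in these cells. The list as a whole summed to 2126 CPM in WT and 2521 in KO cells. Of its 16 genes 11 were measured, of which 10 had a ratio over the all-gene median. Upwards 3 of 8 passed the fold, against 2.81% of all genes. Klf2, which drives the exit of mature T cells, stood at 5.17 CPM in WT and 19.1 in KO cells (log2 ratio 1.87, 1.36 to 2.45), and Itgb7 (integrin beta 7) at 6.21 and 15.4 (1.29, 0.81 to 1.83). Ccr7, with 35 and 75 UMIs, passed it by little, with an interval that included 0 (0.50, -0.08 to 1.14). In clusters 3 and 4 the ratio of Klf2 was 1.81 (1.40 to 2.26) and that of Itgb7 1.22 (0.60 to 1.93). In clusters 5 and above, where Klf2 stood at 137 and 234 CPM, its ratio was 0.77 and that of Itgb7 0.33.

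Among adhesion genes Cd44 had the highest ratio. Cd44, the hyaluronan receptor, had 20 UMIs in WT and 86 in KO cells (log2 ratio 1.49, 0.80 to 2.30). Its ratio was 0.93 (0.17 to 1.78) in clusters 3 and 4 and 0.21 (-0.03 to 0.45) in clusters 5 and above. Of 12 measured adhesion genes 9 were above the median of all genes, which lay 0.16 below the list's. Upwards 2 of 12 passed the fold, Cd44 and Itgb7, against 2.81% of all genes. Cd2 (0.41, 0.23 to 0.59), Itgb2 (the beta 2 chain of LFA-1, 0.38, 0.24 to 0.53) and Thy1 (0.21, 0.17 to 0.25) were higher by less. Itga4 stood at 118 and 106 CPM (-0.14, -0.28 to -0.01).

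Immediate early and heat-shock genes were lower as a list, with exceptions. Of 18 measured genes 15 lay at or below the median of all genes, and the list's median was 0.16 below it. Past the fold were 2 of 17 lower, Jun (-0.80, -1.34 to -0.26) and Hsph1 (-0.87, -1.38 to -0.38), and 2 higher, Klf6 and Klf2. Over all genes 0.96% were lower past the fold and 2.81% higher. Jun was higher in KO cells of clusters 5 and above (0.55, 0.29 to 0.81), and had 0.44 (-0.40 to 1.35) in clusters 3 and 4. Jund stood at 802 CPM in WT and 572 in KO cells, and was lower in clusters 5 and above too (-0.41). These genes respond to dissociation of tissue as well as to receptor signals, and the part of sample handling was not tested.

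Genes that report TCR signals lay on both sides. Of 16 measured genes 9 were above the median of all genes. Upwards 1 of 15 passed the fold (Cd53), against 2.81% of all genes, and downwards 1, against 0.96%. The gene downwards was Egr1, induced by ERK signalling, at 32.9 CPM in WT and 20.6 in KO cells (log2 ratio -0.68, -0.96 to -0.40). Egr1 had 0.15 (-0.23 to 0.54) in clusters 3 and 4 and -0.10 (-0.19 to -0.01) in clusters 5 and above. Cd69 had 23.9 and 28.0, and Cd5 50.8 and 57.0, with intervals that included 0. Nr4a1, with 12 and 20 UMIs, was too scarce to compare at this depth.

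Genes of the DP stage were mostly within the fold. The 17 DP stage markers had a median 0.06 below that of all genes, and 0 of 17 passed the fold. Rag1 stood at 3251 CPM in WT and 2985 in KO cells (log2 ratio -0.12, -0.15 to -0.10), Dntt at 1495 and 1384 (-0.11), Cd4 at 567 and 648 (0.19, 0.14 to 0.25) and Cd8b1 at 3446 and 3645 (0.08). Genes of recombination and end joining (16 measured), transcription factors of the DP stage (24) and the TCR complex with its proximal kinases (20) had medians 0.05, 0.08 and 0.01 below that of all genes, and none of their genes passed the fold with the 3 clusters summed. In cluster 1 alone, Xrcc5 (the Ku80 subunit of end joining, 0.59, 0.05 to 1.18) and Foxo1 (0.63) were past it. They were 1 of 13 recombination genes and 1 of 22 transcription factors with at least 100 UMIs there, against 2.88% of all genes.

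Actin genes stayed within it as well. The 10 actin genes named in the study had a median 0.02 above that of all genes, and 38 measured genes of actin and actin binding 0.01 above it, with 0 past the fold in either list. Rhoa, a small GTPase, stood at 522 and 615 CPM (log2 ratio 0.24, 0.18 to 0.30), and Rac1 at 271 and 300 (0.14, 0.06 to 0.23). The 23 measured genes of Cdc42 and its partners had a median 0.11 above that of all genes. With cells thinned to 1000 UMIs it was 0.02 above. Iqgap2 (a scaffold that binds Cdc42 and Rac1) passed the fold at 0.69 (0.37 to 1.02). It was 1 of 21 of these genes with at least 100 UMIs, against 2.81% of all genes.

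Genes of the Bcl2 family decide whether unselected DP cells die. Of 13 measured genes 6 were above the median of all genes. Bmf stood at 36.6 CPM in WT and 55.5 in KO cells (log2 ratio 0.60, 0.38 to 0.82). It was the 1 of 10 past the fold, against 2.81% of all genes higher. Bbc3 (Puma) stood at 49.6 and 38.4 (-0.37, -0.59 to -0.16), and the anti-apoptotic Bcl2 at 12.3 and 16.3 (0.41, 0.03 to 0.81). Bcl2l1, whose Bcl-xL product keeps DP cells alive, stood at 175 and 170, and Mcl1 at 408 and 425.

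Ribosomal protein genes were lower by a small amount. The median of 85 measured genes was 0.12 below that of all genes and 63 lay at or below it, but Rpl38 passed the fold upwards (0.58). It was 1 of 81 ribosomal protein genes with at least 100 UMIs, against 2.81% of all genes higher. Rpl38 had 0.53 in clusters 3 and 4 and 0.44 in clusters 5 and above. Genes of DNA replication and glycolysis had medians 0.01 and 0.02 below that of all genes, with 0 past the fold in both for the 3 summed. In cluster 0 alone, Mcm6 (a subunit of the replicative helicase) was past it at -0.57 (-0.997 to -0.15). It was 1 of 10 DNA replication genes with at least 100 UMIs there, against 1.33% of all genes lower. With cells thinned to 1000 UMIs the DNA replication median was 0.10 above that of all genes. The mitosis list had a median 0.26 above, with 0 of 5 past the fold and 5 of its 18 measured genes holding 100 UMIs.

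Mitochondrially encoded genes had a median 0.16 above that of all genes with the 3 clusters summed, and 1 of 14 was past the fold, mt-Nd3. The gap was 0.01 over the genes with at least 100 UMIs, and -0.02 in cluster 0. Their summed level was 62555.5 CPM in WT and 61515.9 in KO cells, lower in KO.

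Chemokine receptors had 4 measured genes, with a median 0.29 above that of all genes, a gap that was -0.02 with cells thinned to 1000 UMIs. Ccr9, which guides cells within the thymus, stood at 1404 and 1568 CPM (log2 ratio 0.16, 0.12 to 0.20), and Cxcr4 at 194 and 171 (-0.18, -0.29 to -0.08). Ccr7, described above, was 1 of 3 past the fold, and Ccr4, with 23 and 51 UMIs, had a ratio of 0.55 (-0.17 to 1.34).

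**Figure D5:**
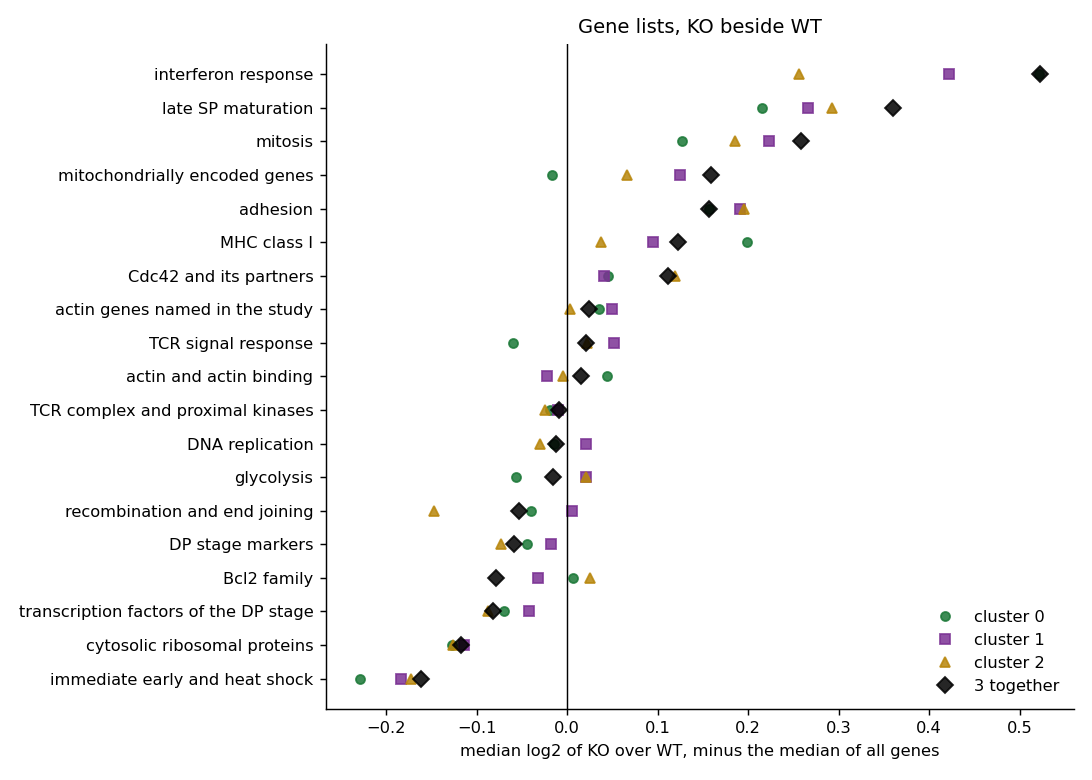
Median log2 ratio of KO over WT of each gene list with at least 10 measured genes, minus the median of all genes, in clusters 0 (circles), 1 (squares), 2 (triangles) and in the 3 together (diamonds). Interferon response stands highest at 0.52 and immediate early and heat-shock genes lowest at -0.16 for the 3 together; a diamond can lie outside the other points because more genes reach 20 UMIs in the sum.

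RNA of other cells was at low levels in both libraries but not equal. Red-cell genes summed to 18.5 CPM in WT and 1.18 in KO cells, with Hba-a2 and Hbb-bt at 0 UMIs in KO. Macrophage markers summed to 123 in both libraries, mostly Apoe and Ctsb, while C1qa had 6 UMIs in WT and 14 in KO cells, C1qb 1 and 12, and C1qc 0 and 14. B cell markers summed to 337 and 344, mostly Ighm, and dendritic cell markers to 196 and 204. Gamma-delta T cell markers summed to 28.1 and 29.7, and DN stage markers to 67.8 and 78.9. Of 10 markers each, 2 of macrophages, 2 of B cells and 1 of dendritic cells held at least 100 UMIs. The sums of these 3 lists thus rest on few genes. The part of RNA of other cells in the differences above was not tested.

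The genes named for ratios that differed between the clusters rest on few UMIs. By the naming rule, Ipo7 was higher in cluster 0 alone (log2 ratio 0.83, 0.33 to 1.37), with -0.24 and -0.12 in clusters 1 and 2. Foxo1 (0.63, 0.16 to 1.14) and Rabep1 (0.63, 0.26 to 1.03) were higher in cluster 1, with ratios from -0.37 to -0.06 in the others. Med27 (0.96, 0.32 to 1.66) was higher in cluster 2, and Frs2 (-0.71, -1.27 to -0.16) and Cars2 (-0.64, -1.16 to -0.12) were lower there. Each had between 28 and 211 UMIs per cluster and library, and no test of the difference was possible.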

How the data were processed

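The deposited matrix holds whole UMI counts per gene and cell, which the authors made from 10x Chromium 3′ reads. The submitters' processing notes name Cell Ranger 3.0.2, STAR, Seurat and mm10, and the annotation version is not given in the sources used here. The deposited cell table gives cluster numbers, and its mitochondrial column is 0 throughout and was not used.

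Library (WT or KO) was read from cell names. UMIs were summed per library and cluster and scaled to CPM (UMIs per 1000000), and log2 ratios of KO over WT had 0.5 added to both sums, with exact conditional binomial intervals. Ratios between clusters used means over cells of UMIs per 10000, in genes seen in at least 10% of cells. With 1 library per genotype no test was run. A gene was past the fold at a log2 ratio of 0.5 with at least 100 UMIs. Lists were described by the median over genes with at least 20 UMIs. Shares have exact Clopper-Pearson intervals. UMIs of 1 cell are not independent, so intervals cover counting error only.

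The shared genes named were the 20 with the largest smallest ratio. Separating genes were the 10 highest and 5 lowest per cluster, by the library with the smaller ratio. KO genes were 15 per direction, by the smallest of the 3 cluster ratios. Genes whose ratios differed between clusters were named by the gap between a cluster and the mean of the others. Other genes were named from lists or after their values were seen. Members and lists were chosen with earlier results of these data known. Some genes that these rules name are not reported here.

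Scrublet in scanpy 1.11.5 called 2 of 6115 WT (0.0327%) and 1859 of 7568 KO cells (24.6%) doublets. Its threshold had not worked, so no cell was removed. Python 3.11.15, edgeR 4.0.16 and DESeq2 1.42.0 (both for scaling alone) were used. Gene positions came from GENCODE M21 on GRCm38. The calculations were tested on simulated data.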

Additional observations from a re-analysis of the deposited data

Results flagged for a closer look

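Only genes named for ratios that differed between clusters were flagged here. Their rule takes the largest gaps between clusters among 5521 genes, so opposite signs are favoured by the choice and test nothing. Among the genes so named, 2 had KO over WT ratios of opposite sign in different clusters, with counting intervals on either side of 0. Genes outside that naming rule met this as well, such as Uxt (-0.53 in cluster 0 and 0.57 in cluster 2) and Dnajb9 (-0.43 and 0.58). Fnip1, a partner of folliculin in nutrient sensing, had a log2 ratio of 0.69 (0.26 to 1.15) in cluster 0 and -0.44 (-0.84 to -0.02) in cluster 1. Snhg12, a host gene of small nucleolar RNAs, had 0.44 (0.03 to 0.87) in cluster 0 and -0.52 (-1.0004 to -0.05) in cluster 2. Fnip1 and Snhg12 rest on 53 to 146 UMIs per cluster and library, and with 1 library per genotype these differences were not tested.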

How the results depend on the processing

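The 30 genes of the naming rule for KO beside WT kept 1 sign under all 9 other settings of scaling, depth, cells and added count. Counts of genes past the fold moved with the minimum of UMIs. The values below are higher and lower in clusters 0, 1 and 2, in the 3 together, and in each of the 3. With a minimum of 20 UMIs they were 855 and 517, 880 and 495, 863 and 516, 929 and 443, and 79 and 29. With 200 UMIs they were 51 and 22, 63 and 25, 44 and 12, 109 and 40, with 2 lower in each of the 3. With no minimum they were 3712 and 3123, 3801 and 2782, 3644 and 2556, 3845 and 2715, and 429 and 260. At a log2 ratio of 1 they were 13 and 5, 14 and 5, 9 and 4, 28 and 7, and 6 and 2.

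With cells thinned to 1000 UMIs, 105 were higher and 54 lower in cluster 0, 109 higher in cluster 1, 77 and 45 in cluster 2, and 11 and 2 in each of the 3, where fewer genes reach the minimum. Of the separating genes, thinning left 0 lower in cluster 1 and 0 higher in cluster 2, and summed UMIs left 0 lower in cluster 1. At a log2 ratio of 1, 0 were higher in cluster 0, 1 higher and 0 lower in cluster 1, and 0 higher in cluster 2. Shared genes numbered 571 against cells outside clusters 0 to 4, and 831 with summed UMIs.

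With the cells of clusters 0 to 4 as the denominator, the 3 clusters held 67.9% of WT and 70.5% of KO cells, cluster 0 28.1% and 28.1%, cluster 1 21.7% and 25.9%, and cluster 2 18.2% and 16.5%. Clusterings at resolutions 1.8 and 2 gave 5748 and 5738 cells, with 99.3% and 98.8% of the members. The ratio of Trbc1 turned to -0.00496 with TMM and -0.00762 with DESeq2 factors. The list medians of dendritic cells and chemokine receptors turned to -0.0344 and -0.0173 with thinned cells, gamma-delta T cells to -0.0267 without the highest Scrublet scores, and B cells to -0.0741 with a minimum of 5 UMIs. Apart from the thinned counts, the cause was not tested. No paired analysis was possible because each genotype has 1 library. Depth limits genes with few UMIs.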
